A study of Homo sapiens with 6 samples.

Results

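A set of 9 genes that restrain bone morphogenetic protein (BMP) signalling, or that BMP signalling is known to induce, were followed in U87MG cells with and without added LMO2. They were taken by name: the inhibitory SMADs SMAD6 and SMAD7, the BMP-activated SMAD9, the pseudoreceptor BAMBI, the target transcription factor ATOH8, and the secreted antagonists GREM1, NOG, CHRDL1 and BMPER. All 9 were found by symbol and by Entrez gene ID among the 27259 genes of the tables, and 8 of them were among the 16092 genes with enough counts to be tested. NOG was not, and its counts are given below.

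U87MG is an established human glioblastoma cell line. Total RNA was sequenced from cells grown in DMEM with serum and harvested 24 h after lentiviral infection. The virus was either the control (3 libraries, U87MG-control) or carried human LMO2 (3 libraries, U87MG-LMO2). Per the study's methods, the CMV promoter of a lentiviral vector with a puromycin marker drives LMO2, a LIM-domain adaptor protein that has no DNA-binding domain of its own. The labels name neither a clone nor a batch, and nothing says that the libraries came from separate cultures, so p-values measure only the spread between these libraries, which may be technical.

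BMP ligands bind type I and type II receptor kinases, which phosphorylate SMAD1, SMAD5 and SMAD9. These SMADs enter the nucleus with SMAD4 and switch on target genes, among them the ID genes and ATOH8. Several targets act back on the pathway: SMAD6 and SMAD7 block receptors and SMADs inside the cell, BAMBI occupies receptor complexes at the membrane, and GREM1, NOG and CHRDL1 bind the ligands outside it. In glioblastoma, BMPs are known for pushing stem-like tumour cells toward astrocytic differentiation, and GREM1 for shielding such cells from BMPs.

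Depth was 11428432 to 13537284 expected counts in U87MG-control and 14630627 to 17892955 in U87MG-LMO2. LMO2 itself served as the check of the labels: its counts were 5 to 11 per U87MG-control library and 4503 to 14570 per U87MG-LMO2 library, and the highest was in replicate 3. Of 7 glial and neural markers with a complete record, S100B, AQP4 and ALDH1L1 were at 0 in every U87MG-control library and SOX2 had at most 4 counts in any library. OLIG2 averaged 0.992 CPM (normalised counts scaled to library size) in U87MG-control, while NES and SLC1A3 were clearly expressed, at 44.5 and 35.5 CPM. The markers S100B, AQP4 and ALDH1L1 were thus at or near 0 counts, and the stem cell marker NES and the glial glutamate transporter SLC1A3 were present. GFAP, left out of the 7 because its value in U87MG-LMO2 replicate 3 is damaged, was scarce. It had 5, 11 and 6.99 expected counts in U87MG-control and 13 and 6 in U87MG-LMO2 replicates 1 and 2. The summed level of these 7 markers was 73.5 to 92.1 CPM in U87MG-control and 63.7 to 75.8 in U87MG-LMO2. That of 8 mesenchymal and fibroblast markers was 13889 to 14110 and 15255 to 17817 CPM. Of the 7 mesenchymal markers tested, 3 rose (COL1A1, COL1A2 and PDGFRB) and 1 fell (ACTA2). The part of these marker changes in the values below was not tested.

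A pair of libraries stood apart for the genes described here, and values without them are given beside the results that changed most. In U87MG-control replicate 1, ATOH8, SMAD6, SMAD7, BAMBI and SMAD9 were lower than in the other 2 control libraries. In U87MG-LMO2 replicate 3, GREM1 was far below the other 2 U87MG-LMO2 libraries.

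Estimates for the 8 tested genes were all higher in U87MG-LMO2, and those for ATOH8, SMAD7 and BMPER passed the test (edgeR quasi-likelihood, Benjamini-Hochberg adjusted over all 16092 genes). That is 3 of 8, where 4.72% of all genes were called higher. None was called lower, where 2.75% of all genes were, and DESeq2 also called 0 lower. At an unadjusted edgeR p under 0.05 there were 6 higher and 0 lower, beside 4143 of all 16092 genes in either direction. For 5 genes (SMAD6, SMAD7, ATOH8, GREM1 and BMPER), every U87MG-LMO2 library lay above every U87MG-control library, a pattern shown by 17.5% of all genes tested (16.6% showed the opposite one). The log2 fold change was above 0 for all 8, with a median of 1.04, against -0.01 over all genes tested, of which 48.8% were above 0. In bulk RNA, a larger share of cells that express a gene and more RNA per cell cannot be told apart.

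**Figure D1:**
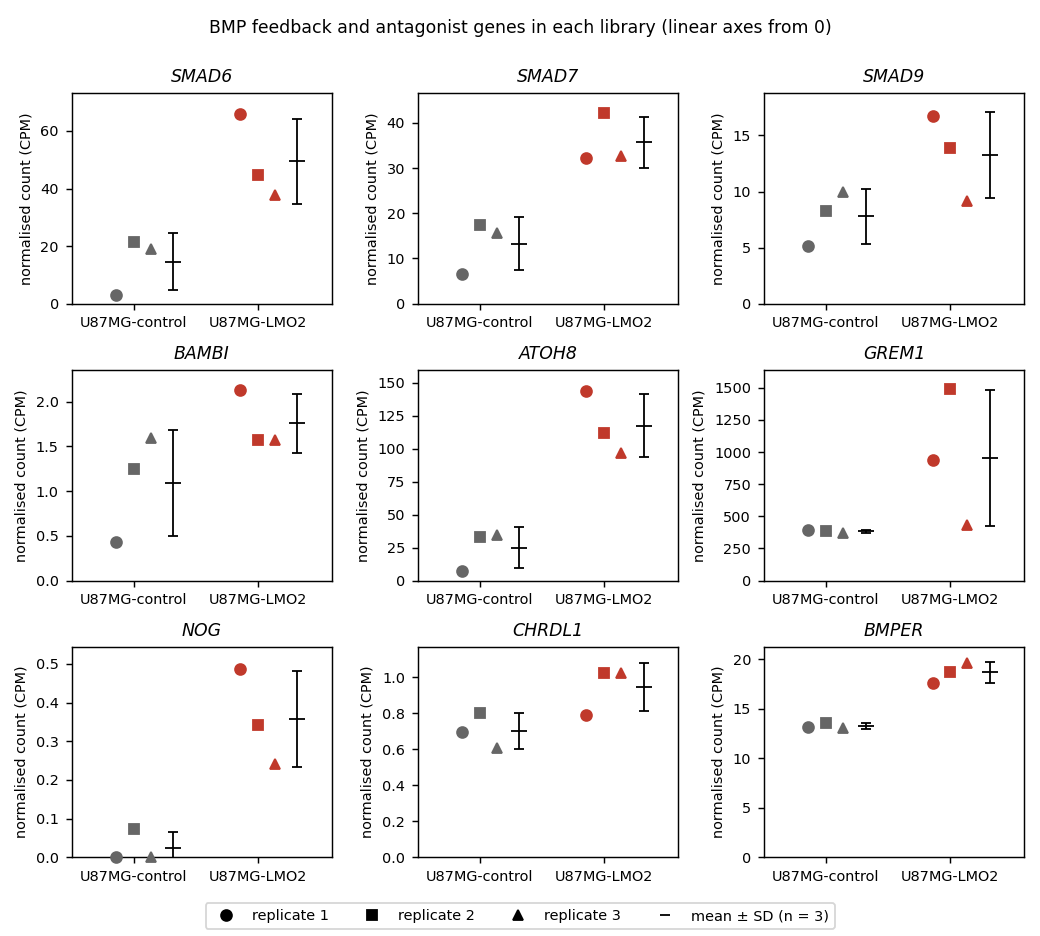
Normalised read count (CPM, linear axes from 0) of each of the 9 genes in the 3 U87MG-control (grey) and 3 U87MG-LMO2 (red) libraries, with the mean and SD at the right of each group. SMAD6, SMAD7, ATOH8, GREM1, NOG and BMPER do not overlap between groups, U87MG-control replicate 1 (circle) is lowest of all libraries for SMAD6, SMAD7, SMAD9, BAMBI and ATOH8, and GREM1 in U87MG-LMO2 replicate 3 (triangle) is close to the controls.

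SMAD6 (gene 4091), which competes with SMAD4 for activated BMP SMADs and blocks BMP type I receptors, was higher in all U87MG-LMO2 libraries but did not pass the test. It lies at chr15:66702228-66782848 on the forward strand (GRCh38, GENCODE v29). Its normalised read counts were 3.12, 21.4 and 19.1 CPM in U87MG-control replicates 1 to 3 and 65.8, 44.6 and 37.8 CPM in U87MG-LMO2 replicates 1 to 3. The groups did not overlap, and the control spread came mostly from replicate 1. The means were 14.6 ± 9.96 and 49.4 ± 14.6 CPM (SD, n = 3 each), and the log2 fold change of 1.75 (SE 0.52, 95% interval 0.58 to 2.92) had an edgeR adjusted p of 0.0759. Without U87MG-control replicate 1 it was 1.28 (adjusted p = 0.0648), and without U87MG-LMO2 replicate 3 it was 1.90 and passed the test (adjusted p = 0.0256). With no filter on low counts SMAD6 also passed, with an adjusted p of 0.0193.

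The promoter of SMAD6 is shown because its window carries the full palindrome to which SMAD proteins bind in the laboratory. No other window searched, as set out below, held it. Windows of 250 bases upstream of the RefSeq starts (GRCh38.p14) were searched on both strands for GTCTAGAC, the SMAD palindrome, for GTCT, its 4-base core, for GGCGCC, a GC-rich element of BMP target genes, and for TTCNNNGAA, the spaced element that STAT factors bind. GTCT lies within GTCTAGAC on each strand. Of 35116 promoters in the RefSeq table, 0.182% held GTCTAGAC, 77.5% GTCT, 16.4% GGCGCC and 6.57% TTCNNNGAA. The table held 8 of the 9 genes with 12 windows, NOG being the gene without one. Capitals mark GTCTAGAC, at positions -12 to -5 counted back from the start of SMAD6. The last 8 bases of the window are exonic in GENCODE v29, and the match overlaps them.
SMAD6 chr15:66701986-66702235 (forward strand): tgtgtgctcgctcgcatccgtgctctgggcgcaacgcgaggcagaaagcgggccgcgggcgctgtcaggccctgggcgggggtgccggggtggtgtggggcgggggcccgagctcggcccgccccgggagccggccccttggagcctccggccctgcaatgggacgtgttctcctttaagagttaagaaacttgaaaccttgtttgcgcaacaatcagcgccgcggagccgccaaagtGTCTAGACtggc
The letters of GGCGCC and of TTCNNNGAA were not found in this window. TTCNNNGAA was found in none of the 12 windows, but only 6.57% of all promoters held it, so its absence from so few says little. A match of letters is a description and no evidence of binding, and a missing match is no evidence against it.

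SMAD7 (gene 4092), the inhibitory SMAD that acts on both the BMP and the TGF-beta branch and brings ubiquitin ligases to receptors, rose in U87MG-LMO2. It lies at chr18:48919853-48952052 on the reverse strand. Its levels were 6.51, 17.4 and 15.7 CPM in U87MG-control and 32.2, 42.1 and 32.7 CPM in U87MG-LMO2, in the order of the replicates. Every U87MG-LMO2 library was well above the highest control. The mean went from 13.2 ± 5.86 to 35.7 ± 5.60 CPM (SD, n = 3 each), a log2 fold change of 1.42 (SE 0.30, edgeR adjusted p = 0.0301). Without U87MG-control replicate 1 the change was 1.10 and still passed (adjusted p = 0.0396). It lost the call without U87MG-control replicate 2 (adjusted p = 0.0620) or 3 (0.0902) and without U87MG-LMO2 replicate 1 (0.0843) or 2 (0.0544), while the log2 fold change stayed between 1.10 and 1.67.

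SMAD9 (gene 4093), a BMP-activated SMAD with weak transcriptional activity whose gene is itself a BMP target, had overlapping groups and did not pass the test. It lies at chr13:36844831-36920765 on the reverse strand. The U87MG-control libraries held 5.12, 8.25 and 9.99 CPM and the U87MG-LMO2 libraries 16.8, 13.8 and 9.16 CPM. Replicate 3 of U87MG-LMO2 lay below replicate 3 of U87MG-control. The log2 fold change was 0.76 (SE 0.28, 95% interval 0.12 to 1.40, edgeR adjusted p = 0.133). It was 0.97 without U87MG-LMO2 replicate 3, which passed (adjusted p = 0.0202), and 0.54 without U87MG-control replicate 1 (adjusted p = 0.330).

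BAMBI (gene 25805), a membrane protein built like a type I receptor but lacking the kinase domain, was scarce, with 5, 17 and 21 counts in U87MG-control and 35, 23 and 26 counts in U87MG-LMO2. It lies at chr10:28677342-28682939 on the forward strand. At 0.434, 1.24 and 1.59 CPM against 2.13, 1.57 and 1.57 CPM, the groups overlapped. The ratio of the summed counts, scaled to depth, was 1.58 (exact 95% interval 1.08 to 2.33, counting error only). The log2 fold change over libraries was 0.66 (SE 0.40, edgeR adjusted p = 0.325), and without U87MG-control replicate 1 it was 0.31 (adjusted p = 0.619).

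ATOH8 (gene 84913), a basic helix-loop-helix transcription factor known as a direct BMP target in liver and endothelium, changed most of the 8 tested genes. It lies at chr2:85751344-85788066 on the forward strand. Its counts were 80, 449 and 457 in U87MG-control and 2358, 1642 and 1605 in U87MG-LMO2, or 6.94, 32.8 and 34.6 CPM against 143.8, 111.9 and 96.7 CPM. The lowest U87MG-LMO2 library was far above the highest control. The mean rose from 24.8 ± 15.5 to 117 ± 24.1 CPM (SD, n = 3 each), a log2 fold change of 2.24 (SE 0.46, 95% interval 1.19 to 3.28, edgeR adjusted p = 0.0280). Without U87MG-control replicate 1 the change was smaller, 1.80, and passed (adjusted p = 0.0166). Without U87MG-control replicate 2, U87MG-control replicate 3 or U87MG-LMO2 replicate 1 the adjusted p rose to 0.0793, 0.0766 and 0.0958.

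The window of ATOH8 is printed for contrast with that of SMAD6, since the levels of both genes went up and down together across the libraries. None of the 4 motifs was found in its 250 bases, so no letter is in capitals. The RefSeq start used here lies inside the GENCODE span of ATOH8 given above. Bases before that span were thus not searched, and the result covers this window alone. The stretch up to the last 97 bases is shown, because those 97 are exonic in GENCODE v29.
ATOH8 chr2:85753741-85753893 (forward strand): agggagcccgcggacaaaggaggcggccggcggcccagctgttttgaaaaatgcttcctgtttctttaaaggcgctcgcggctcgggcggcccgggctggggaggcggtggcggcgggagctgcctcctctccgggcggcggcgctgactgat

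The 5 genes that act inside the cell or at its membrane were low together in U87MG-control replicate 1. On the scale of log2(CPM + 0.5), that library lay 2.52 below the mean of U87MG-control replicates 2 and 3 for SMAD6, a level 5.72-fold below theirs. Only 0.0559% of all genes tested were as low or lower there. ATOH8 was 4.59-fold below (0.0870% of genes as low), SMAD7 2.43-fold (0.311%), BAMBI 2.04-fold (0.659%) and SMAD9 1.71-fold (1.6%). The secreted antagonists did not take part: GREM1 was at 0.969, CHRDL1 at 1.01 and BMPER at 1.01 by the same fold, and the median gene differed by 0.01 on the log2 scale.

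The ID genes, the best-known BMP targets, had the same pattern, with ID1 4.96-fold, ID2 3.69-fold and ID3 4.02-fold below the other controls in that library. Over all genes tested, 18 (0.112%) were at least 4-fold lower there, and 11 of those had 0 CPM in that library. Of the 18, 6 reached a mean of 10 CPM in the other 2 controls, and these were SMAD6, ATOH8, ID1, ID3, NTF4 and CGB2, the last pair being named after their values were seen. The median gene tested was not lower in that library. What set it apart was not tested.

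**Figure D2:**
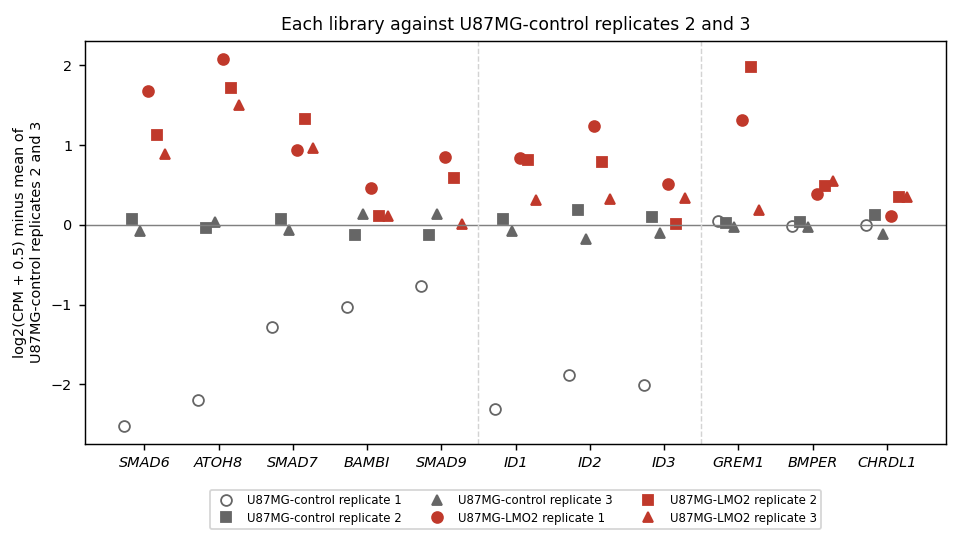
Each library's level of a gene as log2(CPM + 0.5) minus the mean of U87MG-control replicates 2 and 3, for the 8 tested genes and ID1, ID2 and ID3. Open circles (U87MG-control replicate 1) lie at -0.77 or lower for SMAD6, ATOH8, SMAD7, BAMBI, SMAD9 and the ID genes and near 0 for GREM1, BMPER and CHRDL1, and GREM1 in U87MG-LMO2 replicate 3 (red triangle) lies close to the controls.

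GREM1 (gene 26585), the DAN-family antagonist that binds BMP2, BMP4 and BMP7, was by far the most abundant of the 9 genes and was higher in all U87MG-LMO2 libraries without passing the test. It lies at chr15:32717974-32745107 on the forward strand and shares 188 exonic bases with the antisense lincRNA AC090877.2. Whether the counting used strand is not given in the sources used here, so reads of that stretch cannot be assigned. Counts were 4494, 5263 and 4911 in U87MG-control and 15359, 21846 and 7164 in U87MG-LMO2. Scaled to depth, the controls were nearly equal at 389.9, 384.4 and 371.6 CPM, while the U87MG-LMO2 libraries were scattered at 936.9, 1489 and 431.6 CPM. The means were 382 ± 9.36 and 953 ± 529 CPM (SD, n = 3 each), with a log2 fold change of 1.32 (SE 0.36, 95% interval 0.51 to 2.13) and an edgeR adjusted p of 0.0591.

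The outcome for GREM1 depended on U87MG-LMO2 replicate 3, which lay 2.73-fold below the mean of replicates 1 and 2 (0.360% of genes were as low there) although LMO2 itself was highest in it. Without that library the log2 fold change was 1.67 with an adjusted p of 3.98e-04, and without U87MG-LMO2 replicate 2 it was 0.84. GREM1 also passed by DESeq2 (adjusted p = 0.0424) and with no filter on low counts (0.0112). Without U87MG-control replicate 1 it was 1.33 (adjusted p = 0.188). A figure panel of the study lists GREM1 and ID1 among genes taken from this RNA-seq, so their direction here is not independent evidence.

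The promoter of GREM1 is shown because it held 2 copies of GGCGCC and 3 copies of the GTCT core, read as GTCT or AGAC. BAMBI and BMPER were the other genes here with GGCGCC in a window. Capitals mark these letters in the 250 bases upstream of the first start, of which the last 30 are exonic in GENCODE v29.
GREM1 chr15:32717754-32718003 (forward strand): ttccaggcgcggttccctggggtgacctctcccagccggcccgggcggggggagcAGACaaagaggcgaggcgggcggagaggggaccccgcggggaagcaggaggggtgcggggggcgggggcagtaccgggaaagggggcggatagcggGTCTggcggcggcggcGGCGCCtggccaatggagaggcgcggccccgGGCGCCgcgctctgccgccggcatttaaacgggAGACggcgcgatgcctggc

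NOG (gene 9241), noggin, which wraps around BMP ligands and hides their receptor sites, was barely detected. It lies at chr17:56593699-56595590 on the forward strand. The U87MG-control libraries held 0, 1 and 0 counts and the U87MG-LMO2 libraries 8, 5 and 4, so each U87MG-LMO2 library was above each control. A library with 0 counts allows up to 3 (counting error only). The summed counts of 1 and 17 gave a ratio of 13.7 scaled to depth, with an exact 95% interval of 2.15 to 573. With no filter on low counts, edgeR gave NOG an adjusted p of 0.0677.

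CHRDL1 (gene 91851), chordin-like 1, another ligand-binding antagonist, was also scarce, with 7.72, 11.43 and 7.55 expected counts in U87MG-control and 12.62, 15.07 and 16.84 in U87MG-LMO2. It lies at chrX:110673856-110795819 on the reverse strand. At 0.605 to 0.803 CPM against 0.793 to 1.02 CPM, the groups overlapped. The ratio of summed counts was 1.34 (exact 95% interval 0.816 to 2.25), and CHRDL1 missed the threshold with a log2 fold change of 0.42 (SE 0.30, edgeR adjusted p = 0.439). A difference was not detectable at this depth.

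BMPER (gene 168667), the vertebrate crossveinless-2, which binds BMPs and chordin and can dampen or raise signalling, showed the smallest change of the genes that passed and the least spread. It lies at chr7:33904308-34156356 on the forward strand. The libraries held 13.2, 13.6 and 13.0 CPM in U87MG-control and 17.6, 18.7 and 19.6 CPM in U87MG-LMO2. Both groups were tight and well separated. The mean rose from 13.3 ± 0.291 to 18.7 ± 1.04 CPM (SD, n = 3 each), a log2 fold change of 0.49 (SE 0.12, 95% interval 0.22 to 0.76, edgeR adjusted p = 0.0422). The call was lost without U87MG-control replicate 1 (adjusted p = 0.125), replicate 2 (0.133) or replicate 3 (0.168), without U87MG-LMO2 replicate 1 (0.106) or 2 (0.0727), and with limma on log2(FPKM + 1) (0.0634), while the size stayed between 0.42 and 0.56.

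**Figure D3:**
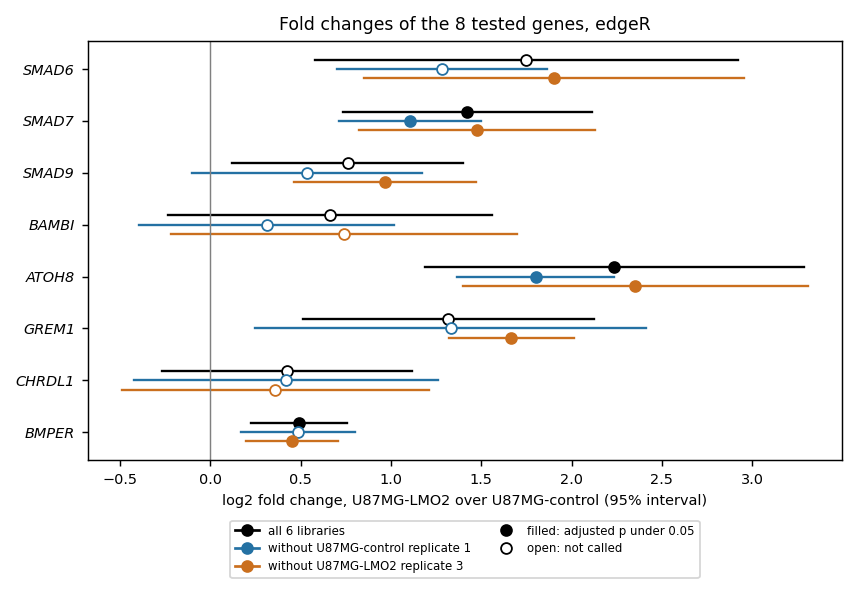
Log2 fold change of U87MG-LMO2 over U87MG-control with its 95% interval (edgeR) for the 8 tested genes, in all 6 libraries (black), without U87MG-control replicate 1 (blue) and without U87MG-LMO2 replicate 3 (orange). Filled points passed the adjusted p threshold of 0.05: with all libraries ATOH8, SMAD7 and BMPER, without U87MG-control replicate 1 ATOH8 and SMAD7, and without U87MG-LMO2 replicate 3 also GREM1, SMAD6 and SMAD9.

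To compare levels between genes, FPKM values were used, which are scaled to gene length. In U87MG-control the order of mean FPKM was GREM1 (91.7 ± 2.24, SD, n = 3), SMAD6 (8.74 ± 6.24), ATOH8 (5.76 ± 3.67), BMPER (5.21 ± 0.137), SMAD7 (4.5 ± 1.92), SMAD9 (2.29 ± 0.98), BAMBI (0.637 ± 0.349), CHRDL1 (0.177 ± 0.0306) and NOG (0.0133 ± 0.0231). Neighbours from SMAD6 down to SMAD9 overlapped between libraries, and the other neighbours did not. In U87MG-LMO2 the mean FPKM was 225 ± 130 for GREM1, 27.2 ± 8.84 for SMAD6, 25.7 ± 6.57 for ATOH8, 11.7 ± 2.11 for SMAD7 and 7.31 ± 0.236 for BMPER. SMAD9 (4.75 ± 1.34), BAMBI (1.00 ± 0.225), CHRDL1 (0.227 ± 0.0252) and NOG (0.187 ± 0.0702) followed, and only SMAD6 with ATOH8 and CHRDL1 with NOG overlapped. SMAD7 thus stood above BMPER in U87MG-LMO2 and beside it in U87MG-control.

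Summed over SMAD6, SMAD7, SMAD9, BAMBI and ATOH8, the FPKM level was 6.94, 29.85 and 29.01 in the U87MG-control libraries and 87.1, 71.2 and 52.7 in the U87MG-LMO2 libraries. The 4 secreted antagonists summed to 98.9, 98.0 and 94.4 FPKM in U87MG-control and to 234, 363 and 102 FPKM in U87MG-LMO2. GREM1 made up 92.8% to 97.8% of the secreted sum in any library. The secreted side thus followed GREM1. Both sums were higher in every U87MG-LMO2 library than in any control, though the secreted sum of U87MG-LMO2 replicate 3 stood close to the controls. By CPM, SMAD9 and BAMBI each overlapped between the groups.

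Across the 6 libraries, log2 CPM of SMAD6, SMAD7, SMAD9, BAMBI and ATOH8 ran together, SMAD7 less closely with SMAD9 and BAMBI. The Pearson correlation was 0.986 for SMAD6 with ATOH8, 0.978 for SMAD7 with ATOH8, 0.959 for SMAD6 with BAMBI and 0.921 for SMAD6 with SMAD9, and the lowest within this group were 0.858 for SMAD7 with SMAD9 and 0.859 for SMAD7 with BAMBI. GREM1 reached 0.461 (BAMBI) to 0.760 (SMAD9) with the others, and BMPER 0.559 (BAMBI) to 0.857 (SMAD7). These are descriptions over 6 libraries that share the group difference and the low U87MG-control replicate 1. Among the 15226 genes compared, those most like each gene were a gene with no symbol in RefSeq, PEA15 and MIGA2 for SMAD6 (0.998, 0.997 and 0.997), GLYCTK and TRIM28 for SMAD7 (0.998 each), CCNF and POU2AF1 for SMAD9 (0.994 and 0.993), PDF and TRIM7 for BAMBI (0.999 and 0.997), FSD2 and AMH for ATOH8 (0.995 each), CDK15 and IGFBP3 for GREM1 (0.997 and 0.996) and TCF7 and RAB34 for BMPER (1.000 and 0.996). With so many genes and 6 libraries, values this close to 1 were found for each gene examined.

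The rest of the pathway moved less. A list of 55 other BMP pathway genes was followed, of which 9 had no line in the tables used here, 8 were below the filter on low counts and 38 were tested. By edgeR 4 of the 38 were called higher (RGMB, BMP1, ENG and CRIM1) and 0 lower, beside 4.72% and 2.75% of all genes, and DESeq2 called 5 higher and 0 lower. At an unadjusted edgeR p under 0.05 there were 10 higher and 3 lower, beside 4143 of all 16092 genes in either direction. The median log2 fold change was 0.03, 20 of the 38 were above 0, and every U87MG-LMO2 library was above every control for 8 and below for 4, beside 17.5% and 16.6% of all genes tested.

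Among the 9 receptors and co-receptors tested, 2 co-receptors rose and no signalling receptor was called. RGMB, a glycolipid-anchored BMP co-receptor, held 65.9, 41.2 and 45.6 CPM in U87MG-control and 110, 142 and 112 CPM in U87MG-LMO2, a log2 fold change of 1.25 (SE 0.19, edgeR adjusted p = 0.0108). It was the most stable of these calls, passing in 13 of 14 alternative settings, the exception being without U87MG-control replicate 3. ENG (endoglin), an accessory receptor for BMP and TGF-beta ligands, went from 153 ± 17.6 to 252 ± 56.3 CPM (log2 fold change 0.72, SE 0.16, adjusted p = 0.0368). ENG lost the call without U87MG-control replicate 1 (adjusted p = 0.144), 2 (0.0985) or 3 (0.134), without U87MG-LMO2 replicate 1 (0.0994) and with the replicate block (0.0569). For BMPR1A, BMPR2 and ACVR1, the receptor kinases, the log2 fold changes were -0.16, -0.29 and -0.02 (adjusted p = 0.349, 0.156 and 0.932).

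Of 9 other antagonists or modulators tested, a group of mostly secreted proteins that includes membrane-anchored CRIM1, 2 were called higher, beside 4.72% of all genes tested. BMP1, which despite its name is a protease that cleaves chordin and procollagens, went from 68.8 ± 3.36 to 117 ± 18.8 CPM (log2 fold change 0.77, SE 0.13, edgeR adjusted p = 0.0136), and lost the call without U87MG-control replicate 1 (adjusted p = 0.0728), 2 (0.0688) or 3 (0.0718). CRIM1, a membrane-anchored protein with cysteine-rich repeats that holds back BMPs, went from 153 ± 40.9 to 292 ± 70.0 CPM (0.94, SE 0.23, adjusted p = 0.0465), and passed in 6 of 14 alternative settings. It lost the call without any 1 U87MG-control library (adjusted p = 0.135, 0.116 and 0.0992 for replicates 1 to 3), without U87MG-LMO2 replicate 1 (0.152) or 2 (0.0823), with the replicate block (0.0767) and with limma on log2(FPKM + 1) (0.0690) or log2(FPKM + 0.1) (0.0704).

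None of 7 ligands, 3 SMADs of the activating branch, 7 regulators of SMAD turnover or repression and 3 ID genes was called by edgeR or DESeq2. At an unadjusted p under 0.05, edgeR counted 1 ligand higher and 1 lower, 0 of the SMADs, 1 regulator higher and 1 lower, and 2 ID genes higher. Of all 16092 genes tested, 4143 had such a p in either direction. The ligands with such a p were GDF5 (log2 fold change 0.51, edgeR adjusted p = 0.0946) and BMP7 (-0.45, adjusted p = 0.128). GDF5 had the highest mean FPKM of the 7 ligands tested, 19.9 in U87MG-control and 27.6 in U87MG-LMO2. BMP2 and BMP6, a pair of scarcer ligands, had log2 fold changes of 0.97 and -0.84 (adjusted p = 0.250 and 0.254). Without U87MG-LMO2 replicate 3, which held 17.2 CPM of BMP2 against 6.59 and 5.18 CPM in replicates 1 and 2, these were 0.27 and -0.47. BMP4 had no line in the tables used here. SMAD1, SMAD5 and SMAD4 stayed close to their control levels, with log2 fold changes of -0.04 (95% interval -0.37 to 0.29), -0.15 (-0.42 to 0.11) and 0.02 (-0.27 to 0.31). The direction for SMAD1 turned with a correction for GC content, that for SMAD4 with limma on FPKM values, and both these and ACVR1 turned when single libraries were left out. The study counted ID1 as upregulated in this RNA-seq by its own fold and probability threshold, which differs from the one used here. It also reported promoter and protein assays of ID1, which were not examined here. ID1, ID2 and ID3 gave 1.12, 1.24 and 0.72 (adjusted p = 0.186, 0.122 and 0.330). Without U87MG-control replicate 1 they gave 0.67, 0.84 and 0.30 (adjusted p = 0.118, 0.179 and 0.368), and without U87MG-LMO2 replicate 3 ID2 passed (1.44, adjusted p = 0.0380). ID4 had 2 counts per U87MG-control library and 5 or 6 per U87MG-LMO2 library.

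**Figure D4:**
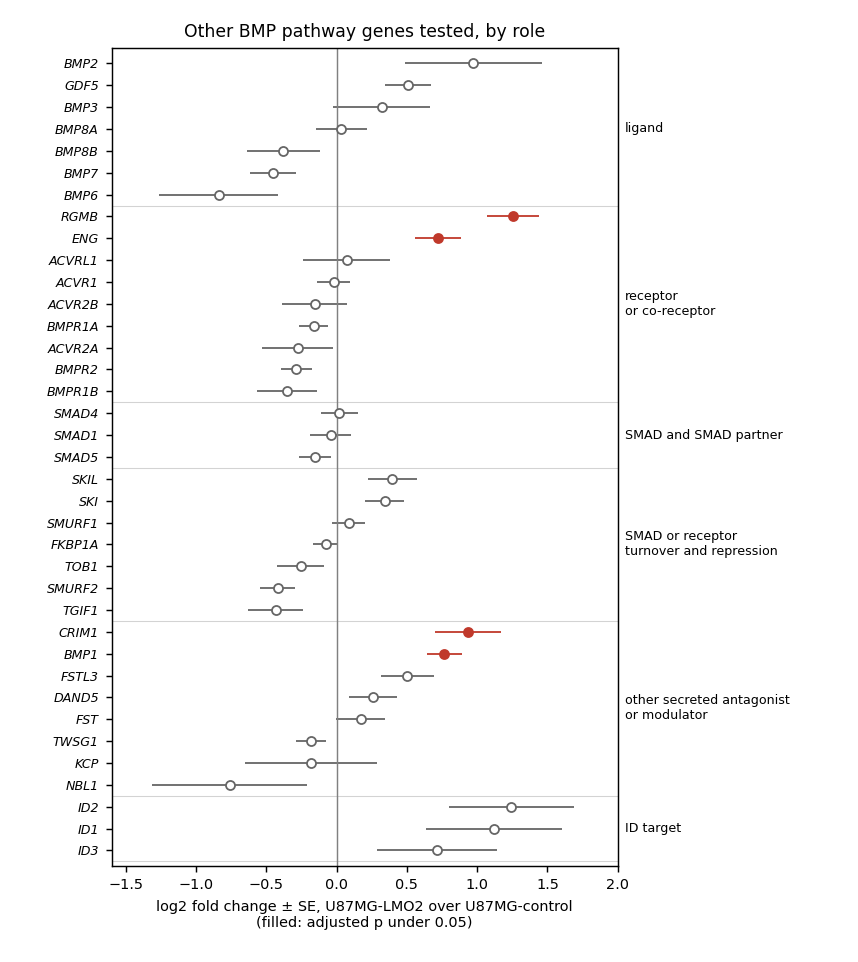
Log2 fold change (± SE, edgeR) of other BMP pathway genes tested, ordered within each role. Filled red points (RGMB, ENG, CRIM1 and BMP1) passed the adjusted p threshold of 0.05. Receptor kinases run from -0.35 (BMPR1B) to 0.07 (ACVRL1), and activating SMADs from -0.15 (SMAD5) to 0.02 (SMAD4).

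A list of 6 feedback genes of the neighbouring TGF-beta branch was set beside them, 4 of which (SKI, SKIL, TGIF1 and SMURF2) are also on the BMP pathway list. By edgeR 1 of the 6 was called higher, PMEPA1, and 0 lower, beside 4.72% and 2.75% of all genes. At an unadjusted p under 0.05 there were 2 higher and 1 lower, beside 4143 of all 16092 genes in either direction. PMEPA1 encodes a membrane protein that holds SMAD2 and SMAD3 away from TGF-beta receptors. It held 2.43, 3.29 and 3.48 CPM in U87MG-control and 8.42, 15.4 and 6.87 CPM in U87MG-LMO2, a log2 fold change of 1.72 (SE 0.32, edgeR adjusted p = 0.0207). PMEPA1 lost the call without U87MG-control replicate 1 (adjusted p = 0.102), 2 (0.0792) or 3 (0.0774) and without U87MG-LMO2 replicate 1 (0.0559). LDLRAD4, its relative, gave 0.43 (adjusted p = 0.483), and the median of the 6 was 0.37. SMAD7 serves both branches and PMEPA1 the TGF-beta branch, and every U87MG-LMO2 library was above every control for both. Of the 6 genes on this list, 1 (PMEPA1) was separate in that direction and 1 (SMURF2) in the opposite one. These patterns were shown by 17.5% and 16.6% of all genes tested.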

How the data were processed

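Total RNA of 3 U87MG-control and 3 U87MG-LMO2 libraries had, per the labels, been extracted with TRIzol and sequenced at BGI. Per library, the authors deposited a table with expected counts, not normalized, FPKM values, scaled to gene length and depth, and a transcript-averaged gene length (other files hold the authors' mean FPKM, log2 ratio and probability, of which the means were used only to check the tables). The submitters' processing notes name BWA, Bowtie2 and GRCh38.p12 with no role. The counting program and its strand setting are not given in the sources used here. Genes with no line were taken as 0 counts.

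The authors' means matched the libraries for all genes in U87MG-control and for 27128 of 27259 in U87MG-LMO2 (within 0.005 FPKM). The other 131 genes, 0.35% of control counts, are damaged in the table of U87MG-LMO2 replicate 3 and were left out. GFAP is among them and none of the 9 genes described is.

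The 9 genes and the pathway and marker lists were chosen with earlier results of these data known. Symbols came from RefSeq (GRCh38.p14) by Entrez gene ID and were found for 89.6% of genes. Expected counts were rounded and tested with edgeR 4.0.16 (filterByExpr, TMM, glmQLFit, glmQLFTest, 2-sided, no covariate) in R 4.3.3, adjusted by Benjamini-Hochberg over 16092 genes and called under 0.05. The script was tested on simulated data. CPM used TMM-adjusted library sizes. Intervals from counts are exact binomial and express counting error alone, as no molecular identifiers mark reads from 1 molecule. Same-numbered replicates did not deviate together in log2 CPM (prior count 2, r = -0.117, -0.003 and -0.041), so numbers were not taken as pairs. Also named were LMO2, each called gene of the lists, the ID genes, BMP2, BMP4, BMP6, BMPR1A, BMPR2, ACVR1, SMAD1, SMAD4 and SMAD5. The results for GDF5, BMP7 and SMURF2 were added after their values were seen. For likeness, up to 5 genes were taken by Pearson correlation of log2(CPM + 0.5) among genes with a mean of at least 1 CPM.

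Tried besides were upper-quartile normalization, DESeq2 1.42.0, no filter, at least 10 counts in every library, limma 3.58.1 on log2(FPKM + 1) and log2(FPKM + 0.1), a replicate block, a GC-content correction (lowess, span 0.3, GENCODE v29 transcripts, known for 89.7% of tested genes) and leaving out each library. Of the pathway list, 1 tested gene is counted but not reported here.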

Additional observations from a re-analysis of the deposited data

How the results depend on the processing

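All 8 tested genes kept their direction in every alternative that gave a value, 14 in all and 13 for BAMBI and CHRDL1. ATOH8 passed in 11 and SMAD7 in 10, BMPER in 5, GREM1 in 3, SMAD6 in 2, SMAD9 in 1 and BAMBI and CHRDL1 in 0. Of the 9 genes, 2 to 4 were called in each alternative that kept all libraries and 0 to 6 when 1 library was left out: 0 without U87MG-control replicate 2 or 3 or without U87MG-LMO2 replicate 1 (at an unadjusted p under 0.05, 6, 6 and 5), 1 without U87MG-LMO2 replicate 2, and 6 without U87MG-LMO2 replicate 3. Over all genes, leaving out 1 library gave 102 to 1307 higher against 760 and 42 to 1102 lower against 443, both extremes being without U87MG-control replicate 3 and without U87MG-LMO2 replicate 3. DESeq2 gave 681 lower. Other BMP pathway genes called numbered 0 without U87MG-control replicate 3 and 11 without U87MG-LMO2 replicate 3. The cause of these shifts was not tested.

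With a replicate block, 387 genes were higher, 189 lower and 2 other BMP pathway genes called, and BMPER (adjusted p = 0.1098), ENG and CRIM1 lost their calls. The replicate numbers were not taken as pairs, and why these calls were lost was not tested.

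Directions near 0 turned for SMAD1 with the GC-content correction (0.0185) and when single libraries were left out (-0.137 to 0.0521), for SMAD4 with limma on log2(FPKM + 1) (-0.0287) and log2(FPKM + 0.1) (-0.0339) and when libraries were left out (-0.112 to 0.122), and for ACVR1 when libraries were left out (-0.124 to 0.0367). SMAD6, ATOH8 and SMAD7 have transcripts of 58.9%, 58.8% and 56.8% GC against a median of 49.7%, and after the correction their log2 fold changes were 1.62, 2.10 and 1.31. Depth limits what NOG and CHRDL1 can show.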

Other observations

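SOST, which encodes the secreted BMP and WNT antagonist sclerostin, was below the filter on low counts in the main test. It had 0, 2 and 1 counts in U87MG-control replicates 1 to 3 and 16, 24 and 6 counts in U87MG-LMO2 replicates 1 to 3. With no filter on low counts, edgeR gave it an adjusted p of 0.0160. By CPM, SOST had its lowest U87MG-LMO2 value in replicate 3, as did NOG, GREM1, SMAD6, SMAD9, ATOH8 and, narrowly, BAMBI. SMAD7, CHRDL1 and BMPER had theirs in replicate 1. It was named after its values were seen.

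The authors' gene length, an average over the transcripts of a gene that differs between libraries, was shorter for SMAD9 in every U87MG-LMO2 library (2797, 2863 and 2491 bases) than in any U87MG-control library (4035, 3431 and 3117 bases). Of the 11055 tested genes whose length varied by more than 1 base, 833 (7.54%) were shorter in every U87MG-LMO2 library. The groups overlapped in length for SMAD6, SMAD7, BAMBI, ATOH8, GREM1, CHRDL1 and BMPER. Because FPKM divides by this length, the fold between the mean FPKM values of SMAD9 (2.29 and 4.75) was larger than that between its mean CPM values (7.79 and 13.3).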
